A study of Mus musculus with 4 samples.

Results

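Muc1, Muc4, Muc13, Muc15, Muc16, Muc20 and Muc5b are mucins of the epithelial surface, and their mRNA is described here in mouse endometrium. The 7 genes were picked by symbol from the 28545 genes listed for each library. RNA was sequenced from 4 libraries of uterine endometrium, which the series' design text calls uterine tissue of mice at proestrus. The labels name 2 libraries SMAD7fl/fl, with the treatment "blank", and 2 libraries SMAD7 Cre+/-, with the treatment "CKO". The floxed allele, Smad7 flanked by loxP sites, was made by injecting a guide RNA, Cas9 mRNA and a donor vector into fertilized eggs, and the labels give this protocol for all 4 libraries. The promoter that drives Cre, the deleted exons, the strain and the age are not stated in these sources. The design text names the groups knockout and WT, while the labels give floxed mice as controls. Nothing says that the libraries of a group came from separate mice. The p-values set the difference between groups against the spread within groups, and that spread may be only technical.

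Mucins are large glycoproteins whose serine- and threonine-rich stretches carry dense O-linked sugars. Transmembrane mucins (Muc1, Muc4, Muc13, Muc15, Muc16 and Muc20) stay on the apical membrane as part of the glycocalyx, whereas gel-forming mucins such as Muc5b are secreted and make mucus. In the uterus this coat lubricates and protects the luminal epithelium, and Muc1 in particular is known as a barrier to embryo attachment that is regulated by ovarian steroids.

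The stretches that carry the sugars are shown first, because they are the feature the 7 genes share beyond their names. For 6 of the genes the 20 codons with the most serine and threonine are printed 5′ to 3′ on the coding strand, with serine and threonine codons in capitals. All lie in coding exons of the GENCODE mouse release 21 models on GRCm38.
Muc4, chr16:32750238-32750297, plus strand: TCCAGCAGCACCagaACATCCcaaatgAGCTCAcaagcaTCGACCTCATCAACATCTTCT
Muc13, chr16:33798935-33798994, plus strand: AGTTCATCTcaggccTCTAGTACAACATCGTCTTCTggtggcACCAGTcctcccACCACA
Muc15, chr2:110731446-110731505, plus strand: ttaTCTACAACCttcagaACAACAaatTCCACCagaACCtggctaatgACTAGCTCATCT
Muc16, chr9:18636891-18636950, minus strand: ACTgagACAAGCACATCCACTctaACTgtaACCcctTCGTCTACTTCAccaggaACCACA
Muc20, chr16:32793365-32793424, minus strand: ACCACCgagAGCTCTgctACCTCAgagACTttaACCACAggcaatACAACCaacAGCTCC
Muc5b, chr7:141861689-141861748, plus strand: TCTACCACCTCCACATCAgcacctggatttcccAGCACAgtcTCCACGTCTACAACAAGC

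Of the 20 codons in each stretch, 15 encode serine or threonine in Muc4, 14 in Muc13, Muc16 and Muc5b, 13 in Muc20, and 12 in Muc15. Over the whole coding sequence, serine and threonine codons made up 38.1% in Muc4, 35.2% in Muc20, 34.9% in Muc1, 31.9% in Muc16, 30.7% in Muc13, 26.2% in Muc5b and 23.6% in Muc15. The median over 21584 protein-coding genes was 13.2%, so all 7 lay above it.

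Some of the 7 coding sequences hold tandem repeats, which bears on how well a short read can be placed. The clearest case is Muc13, whose repeat unit of 81 bases runs for 7.19 copies at 99.0% identity between neighbouring units. The first and second units, printed with the same capitals, differ at 4 bases.
Muc13 unit 1, chr16:33798935-33799015, plus strand: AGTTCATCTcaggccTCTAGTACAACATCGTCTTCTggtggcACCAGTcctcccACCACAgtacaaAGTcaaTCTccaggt
Muc13 unit 2, chr16:33799016-33799096, plus strand: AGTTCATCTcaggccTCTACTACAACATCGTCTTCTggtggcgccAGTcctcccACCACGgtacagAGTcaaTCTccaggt
Windows of 50 bases that occur more than once within the same coding sequence made up 24.8% of windows in Muc13 and 22.8% in Muc5b. They made up 10.96% in Muc4, 2.06% in Muc16 and 1.52% in Muc1, and there were none in Muc20 or Muc15. No source used here states how reads from repeats were counted.

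Total gene counts ran from 17444368 to 22950532 per library, so that 3 counts equal 0.127 to 0.173 CPM (counts scaled to library size with edgeR's TMM factors). Smad7, the targeted gene, had 34.1 and 37.0 CPM in the floxed-labelled libraries and 225 and 151 CPM in the Cre-labelled libraries. Its level was thus higher, not lower, under the label CKO. Counts over the whole gene cannot show whether exons were deleted. Groups are therefore named by their labels throughout. The floxed-labelled libraries differed from each other (biological coefficient of variation 0.417) about as much as from the Cre-labelled libraries (0.414 to 0.471), while the Cre-labelled pair differed by 0.195. In the edgeR quasi-likelihood test none of the 15212 genes tested passed an adjusted p of 0.05 (percent called 0.0), with 2283 genes at an unadjusted p under 0.05. DESeq2 called 1006 genes.

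Muc1 was the most abundant of the 7 mRNAs in every library, with Muc20 and Muc4 next. Muc4 had about 1.89-fold and Muc16 about 9.88-fold higher fitted levels in the Cre-labelled libraries, without overlap between the groups. In TMM-scaled CPM Muc1 and Muc20 overlapped between the groups: the floxed replicate 1 library was low and the floxed replicate 2 library was not. In FPKM the groups of Muc20 did not overlap, by a small margin. Muc13 and Muc5b were near the detection limit, and Muc15 was represented by 1 read in all.

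Levels of different genes are compared on the FPKM scale, which divides by exon length. Muc1 stood at 47.3 and 88.8 FPKM in the floxed-labelled libraries and at 76.7 and 76.4 FPKM in the Cre-labelled libraries. Muc20 had 4.84 and 16.4 FPKM against 18.2 and 16.7 FPKM. Muc4 had 8.03 and 7.24 FPKM against 15.2 and 14.01 FPKM. Muc1 thus made up 69.2% to 78.9% of the summed FPKM of the 7 mucins. The order of the next pair was not fixed: Muc4 was above Muc20 in the floxed replicate 1 library and below it in the other 3. Muc16 had 0.0496 and 0.0125 FPKM against 0.323 and 0.302 FPKM. Muc13 reached at most 0.332 FPKM, in the Cre replicate 1 library, where it was level with Muc16. Muc5b reached at most 0.0809 FPKM and Muc15 at most 0.0154 FPKM. Among the genes tested, 3.38% had a higher mean FPKM than Muc1, 25.4% than Muc20 and 31.5% than Muc4, but 99.5% than Muc16, whose reads are spread over 26350 exon bases.

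**Figure D1:**
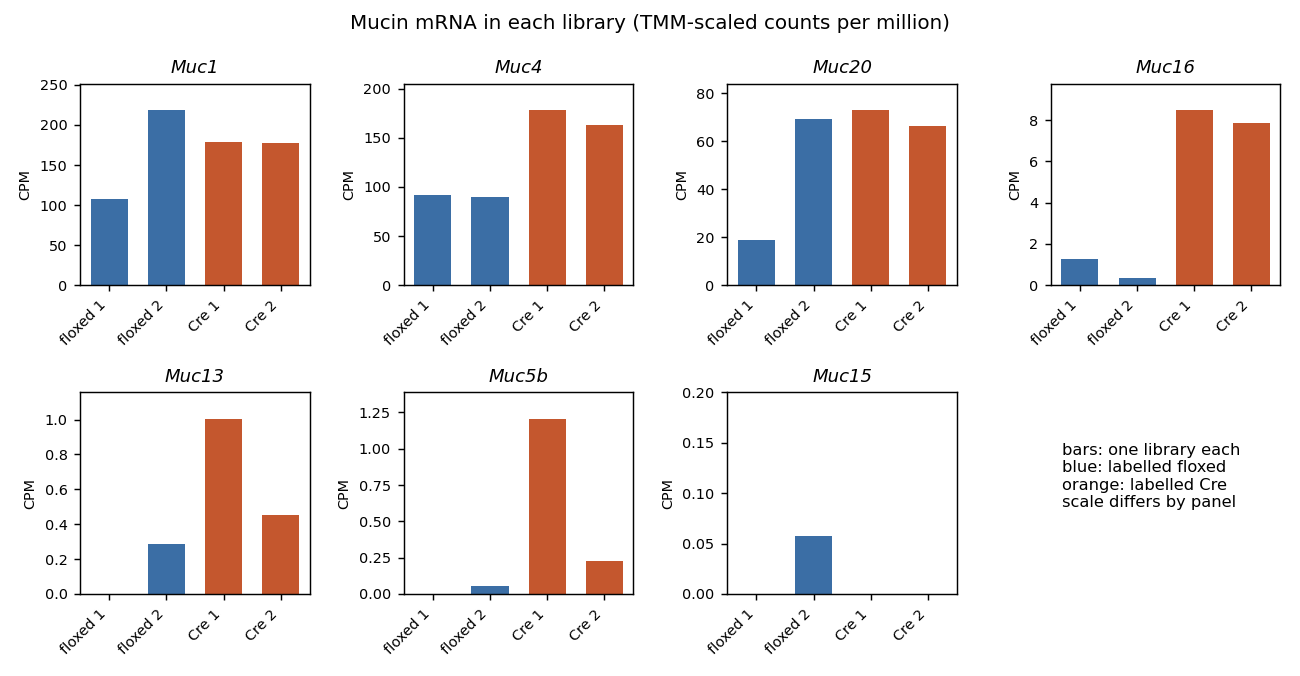
Bars give the TMM-scaled CPM of each mucin in each library (blue, labelled floxed; orange, labelled Cre), each bar 1 library and each panel with its own linear scale from 0. Muc4 and Muc16 have both orange bars above both blue bars, whereas the floxed replicate 2 bar of Muc1, at 219, is the highest in its panel.

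Of the 7 mucins, 4 had a mean of at least 1 CPM and were tested. Muc16 met this minimum only through the Cre-labelled libraries, as did 523 of all genes tested. Of those 523 genes, 284 had an unadjusted p under 0.05 with a higher level in the Cre-labelled libraries. None of the 4 mucins passed the adjusted threshold. Muc4 and Muc16 had an unadjusted p under 0.05 with a higher level in the Cre-labelled libraries, as did 8.11% of all genes tested, and no mucin had one with a lower level (background 6.9%). The same 2 of 4 had higher groups that did not overlap, against 25.4% of all genes tested (49.7% in either direction). In deposited FPKM 3 of 4 did, Muc20 being the third, against 25.5% of all genes tested. The median log2 fold change of the 4 was 0.79, beside -0.04 over all genes tested. It was 0.47 without floxed replicate 1 and 1.39 without floxed replicate 2. With 4 genes these counts describe the mucins and set them apart from nothing.

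Muc4 is a very large transmembrane mucin that can associate with the receptor ErbB2. Its gene, ENSMUSG00000079620, lies at chr16:32735886-32782391 on the plus strand. Its level was 91.4 and 89.4 CPM in the floxed-labelled libraries and 178 and 163 CPM in the Cre-labelled libraries. Both groups were tight (90.4 ± 1.43 and 171 ± 11.1 CPM, SD, n = 2 each), and the lowest value labelled Cre was 1.78 times the highest labelled floxed. The log2 fold change was 0.92 ± 0.21 (SE; edgeR adjusted p = 0.181), and 8.99% of genes tested had a larger one. In DESeq2 the adjusted p was 0.00845, and that tool called 3.63% of all genes tested as higher and 2.98% as lower. Over all alternatives it ran from 0.00845 to 0.9999, and 3 of 15 alternatives passed the threshold. The estimate itself moved little, from 0.84 to 0.98 when any 1 library was left out.

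Muc16 is the transmembrane mucin whose shed form is the antigen CA125, and it binds mesothelin. The gene, ENSMUSG00000109564, spans chr9:18495455-18674530 on the minus strand with 86 exon blocks and shares no exon base with another gene. It was counted 30 and 6 times in the floxed-labelled libraries and 169 and 139 times in the Cre-labelled libraries, or 1.27 and 0.346 against 8.49 and 7.87 CPM. Every Cre-labelled library was at least 6.22 times the highest labelled floxed. Summed over groups, the per-read ratio was 9.35 (exact 95% interval 6.61 to 13.6, counting error only).

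Muc16 met the minimum of 1 CPM only through the Cre-labelled libraries, which favours a high fold change. In the fit over all genes the log2 fold change of Muc16 was 3.30 ± 0.69 (edgeR adjusted p = 0.167), and 1.08% of genes tested had a larger one. Its size depended on which floxed-labelled library was kept. It was 4.54 without floxed replicate 1 and 2.68 without floxed replicate 2. The adjusted p was 0.00032 in DESeq2 and ran from 1.5e-06 to 0.9996 over the alternatives that tested the gene, 5 of 13 of which passed the threshold. All of these estimates were above 0.

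Muc20 is a transmembrane mucin known to bind the receptor Met. ENSMUSG00000035638 lies at chr16:32777419-32797435 on the minus strand, tail to tail with Muc4. Its level was 18.8 and 69.1 CPM in the floxed-labelled libraries and 73.0 and 66.4 CPM in the Cre-labelled libraries. The floxed replicate 1 library was low and the other 3 were alike. The floxed-labelled libraries differed 3.67-fold from each other, and the log2 fold change of 0.67 ± 0.60 did not pass (edgeR adjusted p = 0.626). Without floxed replicate 2 it was 1.88 (adjusted p = 0.000478), and without floxed replicate 1 it was 0.012.

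The neighbours Muc4 and Muc20 overlap at their 3′ ends. The overlap takes in 15.6% of the exon bases of Muc20 and 5.33% of those of Muc4, and no source states whether the counting was stranded. Reads from the shared part can therefore not be assigned with certainty. The deposited levels of the pair nevertheless differed in pattern: Muc4 was even within both groups, and Muc20 was not even within the floxed-labelled libraries.

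Muc1 is the main transmembrane mucin of simple epithelia. ENSMUSG00000042784 lies at chr3:89229057-89233381 on the plus strand. Its level was 107 and 219 CPM in the floxed-labelled libraries and 179 and 177 CPM in the Cre-labelled libraries. The Cre-labelled libraries were almost equal and lay between the floxed-labelled libraries, which differed 2.04-fold. The log2 fold change was 0.13 ± 0.38 (edgeR adjusted p = 0.894). Its direction rested on 1 library: it was -0.30 without floxed replicate 1 and 0.72 without floxed replicate 2 (adjusted p = 0.0324).

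**Figure D2:**
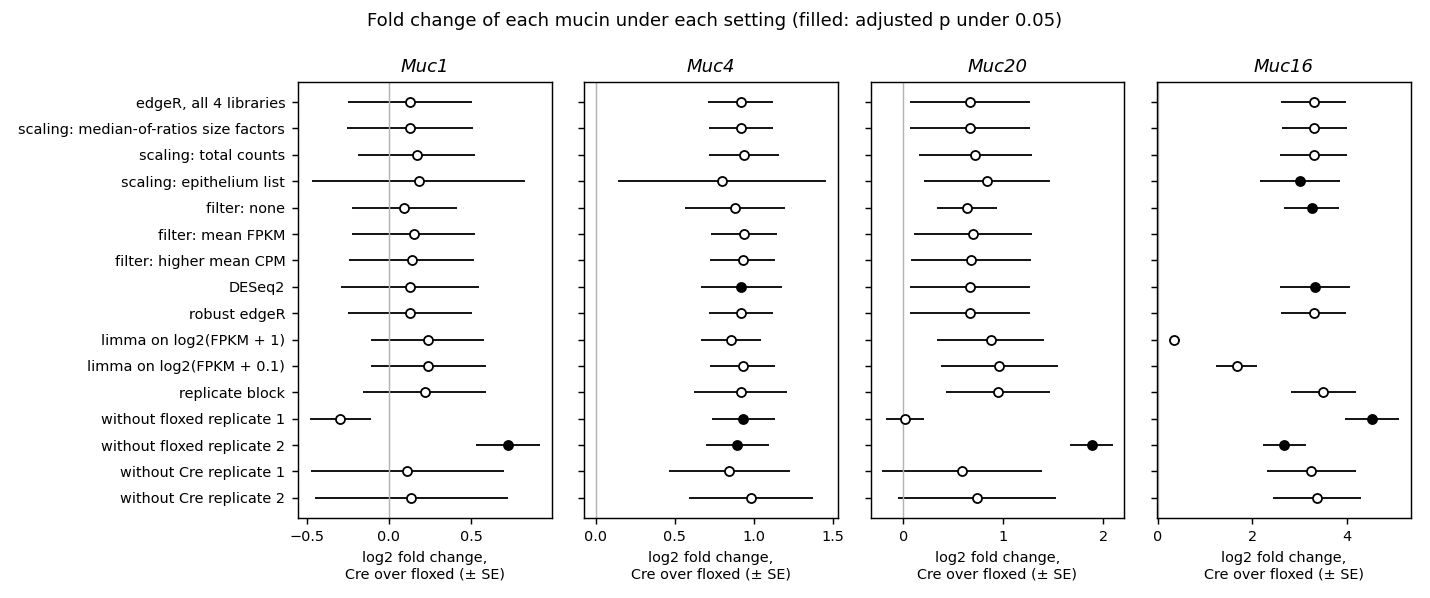
Points give the log2 fold change of each tested mucin (labelled Cre over labelled floxed) with its standard error under each way of processing, filled where the adjusted p was under 0.05; a setting with no point did not test the gene. Muc4 stays between 0.80 and 0.98, Muc16 stays above 0, and Muc1 and Muc20 move with the floxed library left out.

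Muc13, Muc5b and Muc15 were too sparse for the test. Muc13, a short transmembrane mucin (ENSMUSG00000022824, chr16:33794037-33819934, plus strand), had 0 and 5 counts in the floxed-labelled libraries and 20 and 8 in the Cre-labelled libraries. The ratio per read was 6.12 (exact 95% interval 2.33 to 20.3), and 2.58 without floxed replicate 1, with an interval of 0.985 to 8.57. Both Cre-labelled libraries were above both labelled floxed, at 0.453 (Cre replicate 2) against 0.288 CPM (floxed replicate 2) for the nearest pair. The same order was seen in 25.4% of all genes tested, which do not include Muc13. Of its exon bases, 6.06% lie under the antisense gene Gm15657.

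Muc5b, the gel-forming mucin of the set (ENSMUSG00000066108, chr7:141839070-141873084, plus strand), had 0 and 1 counts in the floxed-labelled libraries and 24 and 4 in the Cre-labelled libraries. Its ratio of 30.6 had an interval of 5.06 to 1251. Most of the reads came from 1 library: without Cre replicate 1 the ratio was 9.30, with an interval of 0.920 to 458 that includes no difference. Muc15 (ENSMUSG00000050808, chr2:110721340-110739527, plus strand) had 1 count, in the floxed replicate 2 library, and was not detectable at this depth in the others.

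The low Muc1 and Muc20 of the floxed replicate 1 library went with low values of most epithelial markers. Of the 20 markers 19 were lower in floxed replicate 1 than in floxed replicate 2, Cdh1 being the exception, and 14 were lowest of all libraries in floxed replicate 1. Epcam (255, 381, 240 and 243 CPM in the order floxed 1, floxed 2, Cre 1 and Cre 2), Cdh1 (338, 262, 354 and 362), Cldn3 and Cldn4 were among the 6 that were not. The list, which includes the adhesion protein Epcam and the keratins Krt8 and Krt18, had a geometric mean of 111 and 213 CPM in the floxed-labelled libraries and 167 and 148 CPM in the Cre-labelled libraries, and all its genes were detected in every library. Of its genes, 1 had an unadjusted p under 0.05 with a higher level in the Cre-labelled libraries (Prom1, log2 fold change 1.43) and 2 with a lower one (Cldn4, -2.24, and Cldn3, -0.75). Over all genes tested, 8.11% had such a p with a higher level and 6.9% with a lower one. In bulk tissue fewer cells of a type and less RNA per cell cannot be told apart.

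Dividing by the epithelial marker level brought the Muc1 libraries together. Muc1 was then 0.972 and 1.03 in the floxed-labelled libraries and 1.07 and 1.19 in the Cre-labelled libraries (log2 difference 0.18). Muc20 was 0.170 and 0.325 against 0.438 and 0.447, a log2 difference of 0.91. In Muc20 the floxed replicate 1 library remained the lowest, and the floxed-labelled libraries now differed 1.91-fold. Muc4 was 0.826 and 0.420 against 1.07 and 1.10 (log2 difference 0.88), so its floxed-labelled libraries were less alike than in CPM. The ratio for Muc16 differed by 3.59 on the log2 scale. All 4 ratios were without overlap between groups, as were 12.6% of all genes tested in the same direction after the same division. For each ratio the exact two-sided permutation p was 0.333, the smallest that 2 libraries against 2 allow.

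The Muc1 ratio depended on the marker used. It differed by 0.58 on the log2 scale with Epcam alone, by 0.43 with Krt8 and Krt18 and by -0.049 with Cdh1, the epithelial cadherin, alone. With Cdh1 the groups of both Muc1 and Muc20 overlapped. The ratios of Muc4 and Muc16 kept the groups apart with each of these markers, against 14.6% of all genes tested with Cdh1 and 41.0% with Epcam.

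**Figure D3:**
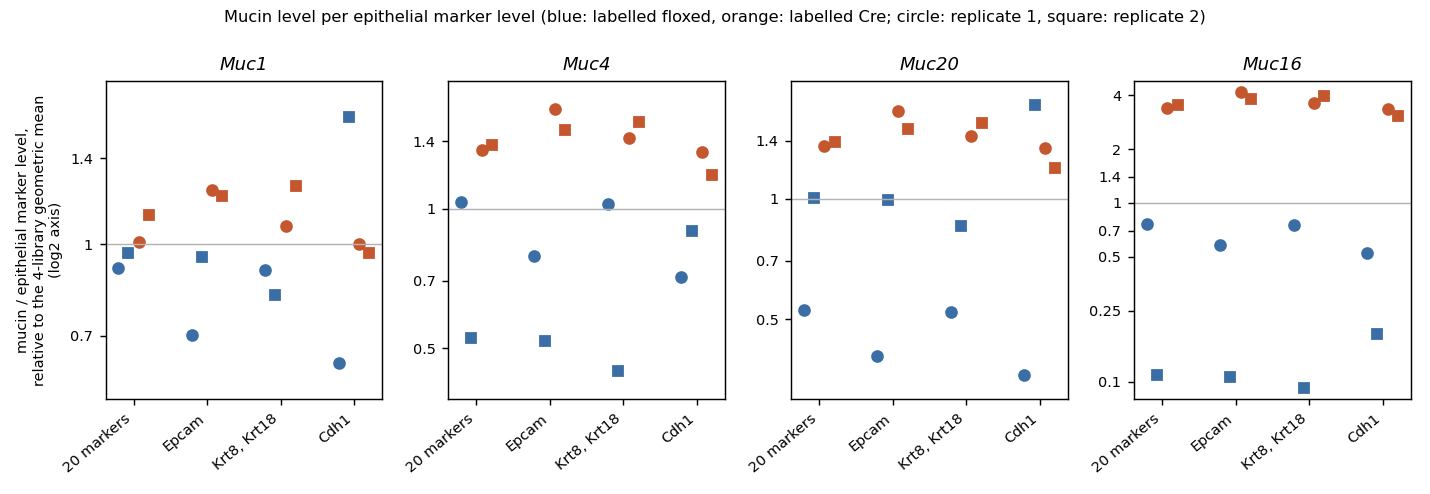
Each point is 1 library's mucin level divided by an epithelial marker level, relative to the geometric mean of the 4 libraries (log2 axis, scale differing by panel), for the 20 markers together, Epcam, the mean of Krt8 and Krt18, and Cdh1. Orange points (labelled Cre) lie above blue points (labelled floxed) for Muc4 and Muc16 with every marker, but with Cdh1 the highest Muc1 and Muc20 points are blue.

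The distance between the centred log2 CPM profiles of the tested mucins was smallest for Muc1 and Muc20 (0.910) and largest for Muc1 and Muc16 (2.51). The nearest profiles were sought among the named protein-coding genes tested, leaving out predicted genes and the mucins of the set. For Muc1 they were Gss, glutathione synthetase (distance 0.0512), and Serpinb8 (0.0670). Nearest to Muc4 were the protocadherin Pcdhb3 (0.0659) and Card6 (0.0753), and nearest to Muc20 were Ddit4 (0.0994) and the adhesion molecule Alcam (0.133). For Muc16 they were Camk2b, a calmodulin-dependent kinase subunit (0.199), and Khdc1a (0.327). These distances are over 4 libraries and are given as a description, with no test.

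Other tissues and cells that carry mucins differed between the same libraries. Muc16 is also made by mesothelium, the lining of the outer uterine surface. Of 10 mesothelial markers, 6 had an unadjusted p under 0.05 with a higher level in the Cre-labelled libraries and none with a lower one. For all genes tested the shares were 8.11% and 6.9%. The median log2 fold change of the 10 markers was 1.29. Their summed level was 500 and 599 CPM in the floxed-labelled libraries and 851 and 619 CPM in the Cre-labelled libraries, with none at 0, but most of it came from Krt19, which is also an epithelial marker, and Wt1. Without that pair, left out after the values were seen, the other 8 summed to 84.3 and 70.0 against 235 and 141 CPM. Mesothelin, Msln, which binds Muc16, had 9.70 and 6.29 against 29.5 and 14.8 CPM, and Upk3b had 23.5 and 21.6 against 79.4 and 46.7 CPM. Both were higher in Cre replicate 1 than in Cre replicate 2, whereas Muc16 was nearly even between those libraries. Their part in the Muc16 result was not tested.

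Markers of neighbouring parts of the tract were uneven within the Cre-labelled libraries. Of 12 tested markers of the oviduct and its ciliated cells, 7 had an unadjusted p under 0.05 with a higher level in the Cre-labelled libraries and none with a lower one, but 4 of the 7 (Ak7, Dnah9, Sntn and Tmem212) met the minimum of 1 CPM only through the Cre-labelled libraries. The 14 listed genes, tested or not, summed to 160 and 257 CPM against 386 and 1251 CPM, and Foxj1, the regulator of motile cilia, had 36 and 64 counts against 517 and 1301. Of 8 tested markers of cervix and vagina, 4 had such a p with a higher level and 1 with a lower one. Krt5 and Krt14 among the 4 met the minimum only through the Cre-labelled libraries. The background for both lists was 8.11% of all genes tested higher and 6.9% lower at this p. The tested markers of cervix and vagina summed to 12.1 and 43.6 against 68.6 and 21.3 CPM. The basal keratin Krt5 had 2, 0, 418 and 9 counts and Krt14 had 2, 1, 236 and 8, in the order floxed 1, floxed 2, Cre 1 and Cre 2. The library with most Krt5 and Krt14 was also that with most Muc5b and Muc13. The part of these tissues in the mucin results was not tested.

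The median luminal marker had a lower, not higher, value in the Cre-labelled libraries, and the glandular markers were divided in direction. Of 11 tested luminal epithelium markers, 4 had an unadjusted p under 0.05 with a lower level in the Cre-labelled libraries, among them Wnt7a (log2 fold change -1.74), Lgr5 (-3.84) and Sprr2f (-2.39). The keratin Krt13, at 3.83, had such a p with a higher level, and met the minimum only through the Cre-labelled libraries. The median of the list was -0.70. The shares of all genes tested at this p, for every list here, were 6.9% lower and 8.11% higher. Of 7 tested glandular markers, 1, the chemokine Cxcl15, had such a p (-1.87), and the median was -0.18. By log2 fold change 3 of the 7 were higher and 4 lower. Sox9 was among the higher (1.27), with 9.07 and 23.9 against 33.3 and 45.8 CPM. Among other cells of the tissue, 6 of 12 leukocyte markers had lower levels at this p and none higher, with Nkg7 at -2.19 and Cd8a at -2.14. The neutrophil genes Cxcr2 (162, 105, 2 and 1 counts) and S100a8 (266, 448, 1 and 3 counts) were nearly absent from the Cre-labelled libraries. Smooth muscle had 3 of 10 higher (Smtn 1.03, Lmod1 0.94 and Myh11 1.33), and stroma had 3 of 12 lower (Thy1 -1.63, Hand2 -0.85 and Hoxa11 -0.72). Endothelium had 1 of 8 higher (Vwf, 1.19) and 1 lower (Erg, -0.78).

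The remaining mucin genes gave no call in either direction at an unadjusted p under 0.05. Of 12 of them in the files 6 were tested, with a median log2 fold change of 0.16. Among all genes tested 15.0% had such a p in either direction. Muc5ac, a gel-forming mucin, had 1 and 16 counts in the floxed-labelled libraries and 85 and 43 in the Cre-labelled libraries. This was 2.85 ± 1.16 on the log2 scale (edgeR adjusted p = 0.347). Its groups did not overlap, as in 49.7% of all genes tested in either direction. Its ratio per read of 8.23 became 3.69 without floxed replicate 1 and 80.8 without floxed replicate 2. Ovgp1, the oviductal glycoprotein, had 1.69, 87.3, 199 and 854 CPM in the same order of libraries and belongs to the oviduct list too. Like Foxj1 it was highest in Cre replicate 2. The sialomucins Emcn, of endothelium (-0.19), and Cd164 (0.20) were close to 0.

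Enzymes that begin O-glycosylation attach GalNAc to serine and threonine, in stretches such as those printed above. Of 16 tested, 3 had an unadjusted p under 0.05 with a higher level in the Cre-labelled libraries and none with a lower one, and their median was 0.01. Such a p was found in 8.11% of all genes tested with a higher level and in 6.9% with a lower one. Galnt13 had 0 and 1 counts in the floxed-labelled libraries and 245 and 236 in the Cre-labelled libraries, a ratio per read of 526 with an exact 95% interval of 93.9 to 20808. It met the minimum only through the Cre-labelled libraries. The ratio was 222 without floxed replicate 1, and without floxed replicate 2 it is at least 101.2-fold higher with floxed set to 3 counts. Galnt3 had 19.7 and 36.5 against 55.2 and 58.3 CPM (log2 fold change 1.02 ± 0.34). Galnt4 had 33.2 and 31.9 against 56.0 and 54.2 CPM (0.76 ± 0.19). In all 3, named for their small p, the groups did not overlap, and none passed the adjusted threshold. Of the 16, 7 had higher groups without overlap and 3 lower, against 25.4% and 24.2% of all genes tested. Galnt15 was highest in the floxed replicate 2 library, at 327 CPM against 105 to 119 in the others.

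Enzymes that extend and cap these sugars showed no such gene. Of 19 tested, none had an unadjusted p under 0.05 in either direction, against 15.0% of all genes tested, and the median was 0.18. Those nearest to it were Gcnt1, which makes the branched core (-0.61), the fucosyltransferase Fut4 (-0.94), the sialyltransferase St3gal4 (0.49) and the sulfotransferase Chst4 (1.21).

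Genes of mucus secretion were examined in the same way. Of 13 tested, 3 had an unadjusted p under 0.05 with a higher level in the Cre-labelled libraries and 1 with a lower one. Over all genes tested these shares were 8.11% and 6.9%. The median log2 fold change of the 13 was 0.48. Agr2, a disulfide isomerase needed to fold gel-forming mucins, had 1.35 and 1.44 against 12.6 and 10.6 CPM (log2 fold change 3.05 ± 0.38, edgeR adjusted p = 0.106). Fcgbp, a mucus protein that binds gel-forming mucins, had 126 and 127 against 1124 and 653 CPM (2.81 ± 0.38, adjusted p = 0.109). In both the floxed-labelled libraries were almost equal. Agr3, which met the minimum only through the Cre-labelled libraries, had 0 counts in both floxed-labelled libraries and 7 and 71 in the Cre-labelled libraries. This is at least 28.4-fold higher with the floxed-labelled libraries set to 3 counts in all, but at least 4.81-fold without Cre replicate 2. Scin, an actin-severing protein, was lower, with 23.2 and 15.1 against 6.74 and 8.32 CPM (-1.35). Clca1, a secreted mucus protein chosen after its values were seen, had 25.8 CPM in the floxed replicate 1 library and 1494 to 2230 CPM in the other 3, the same low library as for Muc20.

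Steroid receptors and genes known to answer to estrogen were examined because estrogen raises Muc1 in mouse uterus. Of 12 tested, 4 had an unadjusted p under 0.05 with a higher level in the Cre-labelled libraries and 1 with a lower one, and the median was 0.94. The background was 8.11% of all genes tested with a higher level and 6.9% with a lower one. Greb1, an estrogen receptor cofactor and target, had 13.1 and 38.3 against 166 and 181 CPM (2.76 ± 0.54). The estrogen receptor Esr1 had 374 and 465 against 736 and 779 CPM (0.85). Of the 12, 8 had higher groups without overlap, Greb1 and Esr1 among them, and 1 lower, against 25.4% and 24.2% of all genes tested. The gene with a lower level was Clca3a2 (-2.69). The secreted uterine proteins Ltf and C3, named after their values were seen, had 677 and 404 CPM in the floxed replicate 1 library. In the other 3 libraries Ltf had 2182 to 3671 CPM and C3 had 2727 to 3824 CPM. The library low in Muc1 and Muc20 was thus also low in these estrogen-responsive mRNAs, and their part in the mucin levels was not tested.

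**Figure D4:**
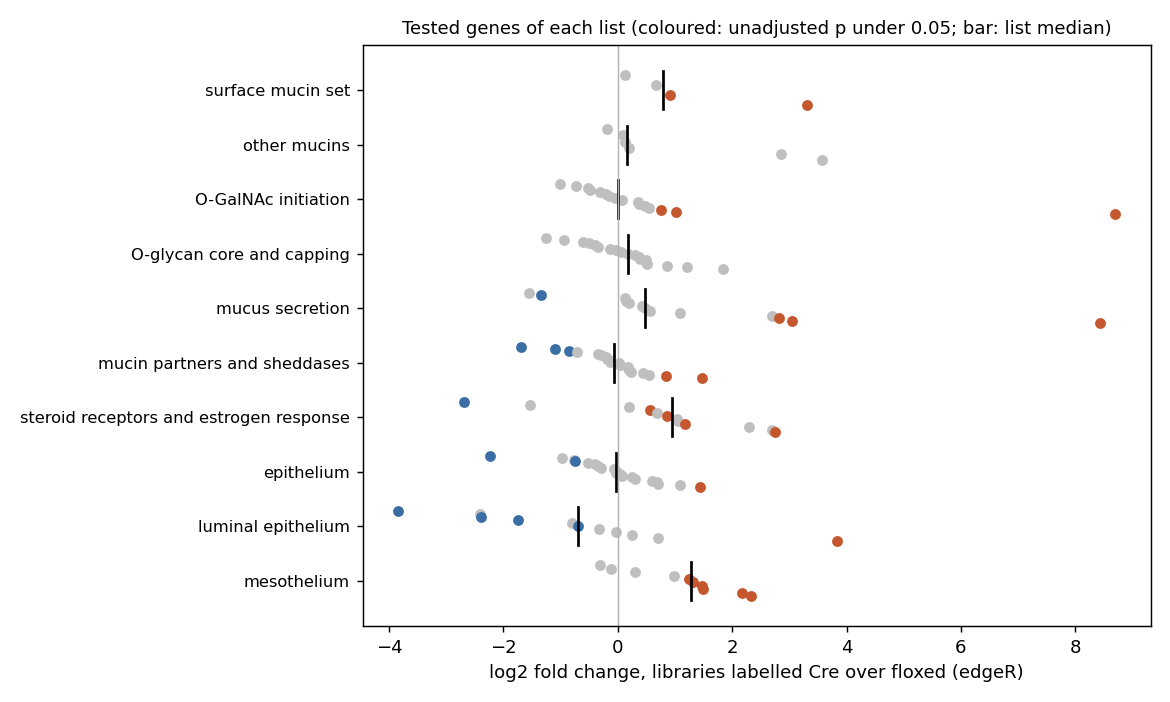
Each point is the log2 fold change (labelled Cre over labelled floxed) of 1 tested gene, by list, coloured where the unadjusted edgeR p was under 0.05, with a bar at the list median. The points near 8 are Galnt13 and Agr3, whose fitted values depend on counts of 0 or 1 in the floxed-labelled libraries.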

How the data were processed

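RNA from 4 mouse endometrium libraries was measured by polyA RNA-seq. Per the submitters' processing notes, HISAT2, HTSeq 0.13.5 and GRCm38 were used. Per the file headers, the authors deposited raw counts per gene and FPKM values. FPKM equals the count divided by gene length and total count, with lengths equal between libraries within 1e-06 for 23463 of 23463 genes. Strand use in counting is not given in the sources used here.

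Counts were fitted with edgeR 4.0.16 (R 4.3.3; TMM scaling, quasi-likelihood test, group only, 2 residual degrees of freedom) over 15212 genes with a mean CPM of at least 1, after checks on simulated counts, and 13333 genes were set aside. P-values are two-sided with Benjamini-Hochberg adjustment at 0.05. A minimum on FPKM would have dropped the long Muc16. Alternatives used DESeq2 1.42.0, limma 3.58.1 on log2(FPKM + 1) or log2(FPKM + 0.1), other scalings and filters, a replicate block, and leaving out each library. Coding sequences came from GENCODE mouse release 21, in which 28447 of 28545 identifiers were found.

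Named genes were the 7 mucins, the 4 genes with the smallest p in each other list, and the 2 nearest profiles per tested mucin. The mucins and lists were chosen with earlier results of these data known. A sequence stretch and a gene that this rule would print are not reported here. Ratios of summed counts carry exact 95% intervals, which cover counting error only.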

Additional observations from a re-analysis of the deposited data

How the results depend on the processing

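The number of genes past the adjusted threshold was 0 in the edgeR fit of all 4 libraries. It was 427 with scaling on the epithelium list, 1928 without a filter, 1006 in DESeq2, 1 in limma on log2(FPKM + 0.1) and 11 with the replicate block. Leaving out 1 library gave 0 to 3721. With a floxed-labelled library left out, the lone one is assumed to vary like the Cre-labelled pair. Epithelium scaling moved the median of all genes from -0.04 to -0.14 and the mucins without overlap from 2 to 4 (3 with total counts or deposited FPKM). Log2 fold changes passing the threshold elsewhere were, for Muc16, 3.01 (epithelium scaling), 3.26 (no filter) and 3.32 (DESeq2), for Muc4, 0.92 (DESeq2), and for Muc5b, 4.50 (no filter, adjusted p = 0.0214). With 1 library left out Muc1 ranged from -0.30 (without floxed replicate 1) to 0.72, Muc4 from 0.84 to 0.98, Muc16 from 2.68 to 4.54 and Muc20 from 0.012 to 1.88. In limma Muc16 was 0.35 with a pseudocount of 1 and 1.67 with 0.1, since its FPKM lies under both or near them. Filters on mean FPKM of 1 and mean CPM of 5 did not test Muc16. The Muc1 ratio was 0.58 with Epcam, 0.43 with Krt8 and Krt18 and -0.049 with Cdh1. The Muc13 and Muc5b ratios have no value without floxed replicate 2, since the remaining count was 0. Under the replicate block Muc1 was 0.22, Muc4 0.92, Muc16 3.51 and Muc20 0.94, with no call for these 4. Between libraries with the same number the correlation of deviations from the group means was -0.07. With 2 libraries in each group, it cannot show whether they shared a batch. Depth limits Muc13, Muc5b and Muc15.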

Other observations

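Proteins that bind or cut surface mucins were measured in the same fit. Of 20 tested, 2 had an unadjusted edgeR p under 0.05 with a higher level in the Cre-labelled libraries and 3 with a lower one, and the median log2 fold change was -0.06. Over all genes tested 8.11% were higher and 6.9% lower at this p. The 2 higher genes were Msln (1.47 ± 0.45) and the kinase gene Gsk3b (0.85 ± 0.28). The receptors Erbb2 (0.03 ± 0.30) and Met (0.02 ± 0.31) differed little. The galectin Lgals3, which crosslinks mucins of epithelial surfaces, had 74.7 and 89.6 CPM in the floxed-labelled libraries and 50.2 and 41.3 CPM in the Cre-labelled libraries (-0.85 ± 0.22, adjusted p = 0.223). Lgals9, another galectin, had 209 and 166 against 96.9 and 78.4 CPM (-1.10 ± 0.25, adjusted p = 0.181). Neither gene overlapped between the groups, with the Cre-labelled libraries lower, as in 24.2% of all genes tested. The protease Mmp9 had 76.7 and 31.7 against 18.2 and 15.5 CPM (-1.69 ± 0.45, adjusted p = 0.229). Mmp9 and Lgals3 are also made by leukocytes, whose 12 markers had a summed level of 1338 and 1402 against 673 and 713 CPM, and their part in these values was not tested.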
